A study of Homo sapiens with 3 samples.

Results

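The genes that build cholesterol and fatty acids, together with the genes that control or carry these lipids, were examined in RNA sequencing of MIAPaCa-2, a long-established line of human pancreatic cancer. The genes were taken by symbol from a list of 40 names, and 39 of the 40 had a row among the 14949 genes of the table. STARD4, a carrier of sterol between membranes, was not analysed here. The 39 genes were divided by role into a sterol branch of 18 enzymes, a fatty acid branch of 14 enzymes, and 7 regulators and transporters.

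3 libraries were compared. The first came from cells with a control short hairpin and no treatment (sh-CTL), the second from untreated cells with a hairpin against METTL3 (sh-METTL3), and the third from sh-CTL cells given NMS-P937 at 80 nM for 24 h (sh-CTL + PLK1i). METTL3 is the catalytic part of the complex that writes N6-methyladenosine on RNA, and NMS-P937 blocks PLK1, a kinase of mitosis. Both hairpin lines were MIAPaCa-2 grown in DMEM with fetal bovine serum, which supplies lipids to the cells. Whether the hairpin lines were single clones was not given in the sources used here, and no vehicle was named for the untreated cells. Each group held 1 library, so no difference had a replicate check and no p-value was computed.

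Cells make cholesterol and fatty acids from the same precursor, acetyl-CoA. Both routes are switched on by SREBP proteins, which sit in the membrane of the endoplasmic reticulum and are carried by SCAP to the Golgi, cut, and sent to the nucleus when sterol is scarce. INSIG proteins hold SCAP back when sterol is plentiful. SREBF2 encodes the form best known for the sterol genes, and SREBF1 encodes the form best known for the fatty acid genes. Tumor cells, those of the pancreas included, use both routes for new membranes.

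The libraries held between 37449331 and 47727497 reads in listed genes. METTL3 had a normalized count of 3939 in sh-CTL, 1651 in sh-METTL3 and 3888 with PLK1i, which is a change of -1.25 on the log2 scale in sh-METTL3 (95% counting interval -1.34 to -1.17). PLK1 had normalized counts of 8058, 5226 and 8515 in the same order. The labels call the cells epithelial, and 4 of 8 epithelial markers had a row (KRT8, KRT18, KRT19 and CLDN4), with a summed level of 3490, 4210 and 3250 CPM, which is reads scaled to the library total. EPCAM, CDH1, KRT7 and KRT20 had none. KRT8, KRT18 and KRT19 were higher in sh-METTL3 than in sh-CTL, while CLDN4 was lower, at 16.7, 13.1 and 22.8 CPM. Of 5 mesenchymal markers, 3 had a row (VIM, ZEB1 and SNAI2), with a summed level of 5680, 4340 and 5710 CPM. VIM held most of this sum, at 5600, 4260 and 5610 CPM. ZEB1 went the other way in sh-METTL3, at 67.0, 79.9 and 87.4 CPM. SNAI2 had 289, 20 and 493 reads. Acinar and endocrine markers had no row, and of 3 blood and endothelial markers only CD68 had one, at 40.2, 74.5 and 60.2 CPM. The part of these marker differences in the values below was not tested.

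SREBP binds a sterol regulatory element beside a box read by the partner factor NF-Y, so the promoters of the genes were searched for these letters. RefSeq promoters on the GRCh38.p14 build, from 250 bases before to 50 after the start of transcription, were matched to 35 of the 39 genes. ACAT2, FDFT1, SQLE and FASN had none. The NF-Y box CCAAT, on either strand, was present in 12 of 15 sterol promoters (80.0%), in 5 of 13 fatty acid promoters (38.5%) and in 4 of 7 promoters of regulators (57.1%). Among the first-listed promoters of 27305 RefSeq genes the share was 35.7%. The 200 bases before the start site are shown for 6 genes that the results turn on: MSMO1, CYP51A1, SC5D and HMGCS1, which had the lowest changes of the sterol branch in sh-METTL3, SREBF2, and ELOVL6 of the fatty acid branch. All are written 5′ to 3′ on the strand of the gene, and capitals mark CCAAT or its reverse complement ATTGG.

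MSMO1 (chr4:165327469-165327668, plus strand): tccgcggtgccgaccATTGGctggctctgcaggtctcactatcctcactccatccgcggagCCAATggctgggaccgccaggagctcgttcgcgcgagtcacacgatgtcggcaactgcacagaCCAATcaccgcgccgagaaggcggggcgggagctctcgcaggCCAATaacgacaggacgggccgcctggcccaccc
CYP51A1 (chr7:92134478-92134677, minus strand): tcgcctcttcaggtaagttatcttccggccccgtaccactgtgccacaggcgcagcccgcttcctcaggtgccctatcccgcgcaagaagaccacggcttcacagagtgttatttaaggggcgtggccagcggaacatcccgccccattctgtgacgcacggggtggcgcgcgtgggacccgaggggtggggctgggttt
SC5D (chr11:121292571-121292770, plus strand): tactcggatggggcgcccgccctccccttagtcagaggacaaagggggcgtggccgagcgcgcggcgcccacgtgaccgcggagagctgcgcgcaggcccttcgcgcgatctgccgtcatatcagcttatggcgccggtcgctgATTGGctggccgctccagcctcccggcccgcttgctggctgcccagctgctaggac
HMGCS1 (chr5:43313413-43313612, minus strand): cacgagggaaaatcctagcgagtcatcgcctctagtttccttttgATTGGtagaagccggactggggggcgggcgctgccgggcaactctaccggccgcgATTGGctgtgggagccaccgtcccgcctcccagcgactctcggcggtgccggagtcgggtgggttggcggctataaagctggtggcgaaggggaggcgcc
SREBF2 (chr22:41832905-41833104, plus strand): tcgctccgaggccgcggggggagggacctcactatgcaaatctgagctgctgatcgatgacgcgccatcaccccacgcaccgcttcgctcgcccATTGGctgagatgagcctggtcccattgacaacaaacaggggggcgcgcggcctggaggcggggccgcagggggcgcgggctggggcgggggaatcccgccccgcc
ELOVL6 (chr4:110198616-110198815, minus strand): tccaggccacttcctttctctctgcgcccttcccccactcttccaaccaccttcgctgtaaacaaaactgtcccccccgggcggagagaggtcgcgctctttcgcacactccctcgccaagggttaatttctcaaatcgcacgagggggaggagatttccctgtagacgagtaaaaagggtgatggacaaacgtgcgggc

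The stretch before MSMO1 held 4 boxes, with first bases at -185, -139, -76 and -34 from the start site. That before HMGCS1 held 2, at -155 and -100, that before SC5D held 1, at -56, and that before CYP51A1 held 0. SREBF2 had 1 box at -106, and the window before ELOVL6 had 0. Over the whole promoter window, PMVK, IDI1 and CYP51A1 were the sterol genes with 0 boxes. All 3 were below 0 in sh-METTL3, as were 15 of all 18 sterol genes. MVK and NSDHL had the most boxes, with 5 each, at changes of -0.37 and 0.01. Whether the number of boxes went with the change over all sterol promoters was not tested. The sterol regulatory element core TCACCCCAC was searched on both strands and was present in 1 of the 35 first-listed promoters, that of SREBF2, against 0.425% of all RefSeq promoters. The looser form TCACNCCAC, which includes the core, was also in 1 of 35, against 1.15%. The E-box CACGTG was in 5 of 35 (LSS, SC5D, ELOVL5, INSIG1 and SCAP), against 7.43%. An alternative promoter of ACSL1 held the core on the opposite strand. These 2 matches are shown with the core in capitals, again on GRCh38.p14 and the strand of the gene.

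SREBF2 (chr22:41832962-41832990, plus strand): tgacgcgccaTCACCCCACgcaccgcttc
ACSL1 (chr4:184805777-184805803, minus strand): gtggagcaGTGGGGTGActttgctgct

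The core of SREBF2 began at -133 and its NF-Y box at -106. These are matches of letters in short windows and describe the sequence only.

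Expression is given as a normalized count, which is the number of reads divided by the size factor of the library. Where 3 values follow each other, they belong to sh-CTL, sh-METTL3 and sh-CTL + PLK1i in that order. The change of a gene is the difference of log2(normalized count + 1) from sh-CTL. Each interval is the exact 95% interval for reads of 1 library over those of another and covers counting error only. A change of 0.32 or more in size on this log2 scale was set as the limit for counting a gene, and the limit was the same in both directions. At 31 reads, ELOVL6 in sh-METTL3 had the fewest reads of any of the 39 genes in any library.

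Levels were compared between genes as RPKM, which scales reads to the library total and to transcript length, and in sh-CTL they spanned a wide range. SCD, the desaturase that makes oleic acid, stood highest at an RPKM of 224, followed by ACLY at 117, NPC2 at 101, FDPS at 97.2, ELOVL5 at 96.5 and EBP at 89.2. The lowest were SC5D at 2.12, MYLIP at 1.92 and ELOVL6 at 0.959. SCD was the highest in every library, at 194 in sh-METTL3 and 198 with PLK1i. ELOVL6 was the lowest in every library, at 0.101 in sh-METTL3 and 1.12 with PLK1i. With 1 library a group, the order of neighbours such as FDPS and ELOVL5 could not be set against a spread between samples.

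**Figure D1:**
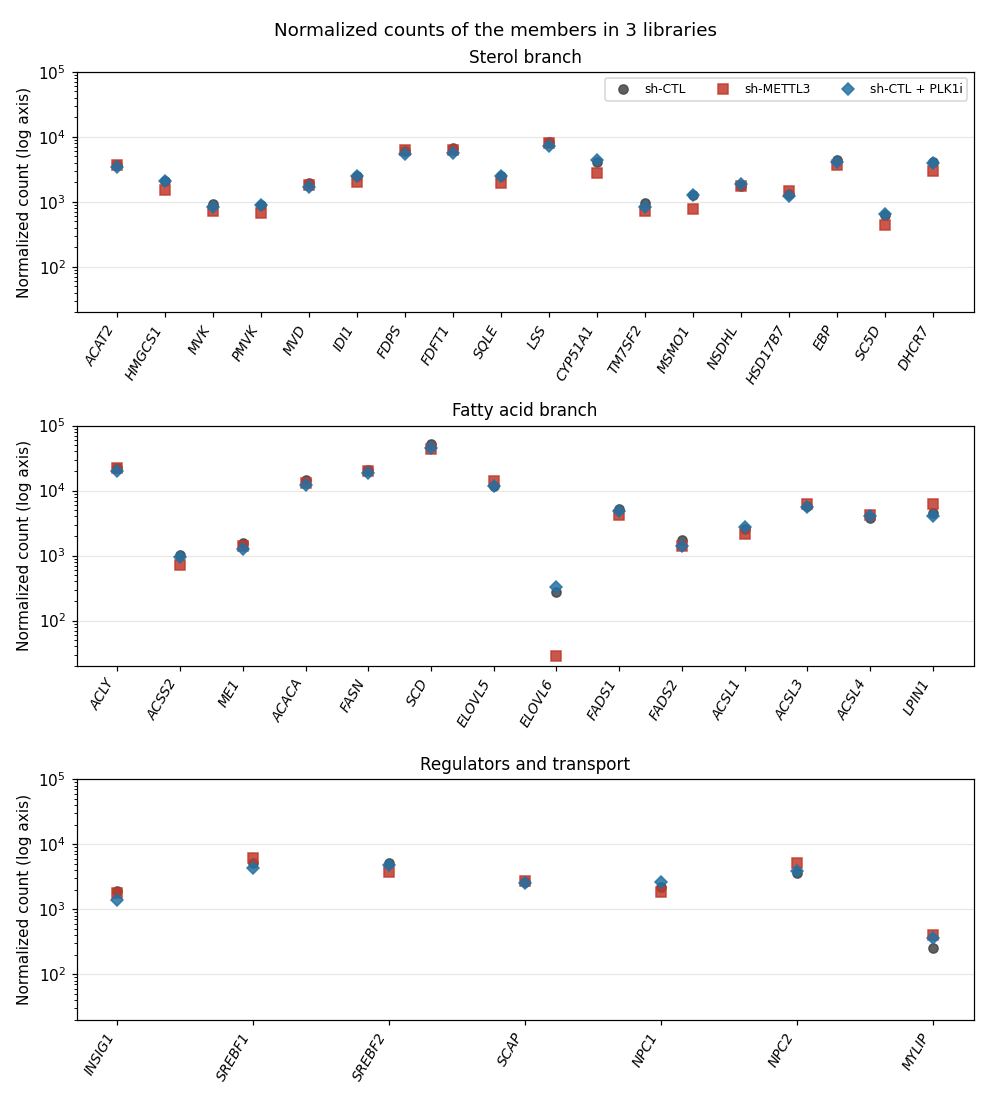
Normalized read count of each of the 39 genes (log axis) in sh-CTL, sh-METTL3 and sh-CTL + PLK1i, 1 library each, in panels for the sterol branch, the fatty acid branch, and the regulators and transporters. SCD lies at the top between 44228 and 51346, and ELOVL6 is at 275 in sh-CTL and 28.7 in sh-METTL3.

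In sh-METTL3 the sterol enzymes lay lower as a group. The median log2 change of the 18 enzymes was -0.31, 15 of them were below 0, and 9 were lower and 0 higher by at least 0.32. In bulk RNA, fewer cells that express a gene and less RNA in each cell cannot be told apart. Among all 14949 genes, 14.5% were lower and 15.8% higher past this limit, and the median was 0.00. Among the 9074 genes with a mean count of 500 or more, which hold 37 of the 39 lipid genes, 9.35% were lower and 6.90% higher, and the median was -0.02. Beyond counting error, 13 of the 18 were lower, 1 was higher and 4 were within it, against 28.2% lower and 27.1% higher among all genes. Of the 9074 genes with a mean count of 500 or more, 3209 were lower and 2714 higher beyond it. 10 of the 18 enzymes had neither an overlapping gene in the table nor a pseudogene copy by name, and 5 of these 10 were lower by at least 0.32.

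The first segment of the branch makes farnesyl diphosphate from acetyl-CoA through mevalonate. HMGCS1, which joins acetoacetyl-CoA with acetyl-CoA, had normalized counts of 2128 in sh-CTL, 1511 in sh-METTL3 and 2098 with PLK1i. Its log2 change in sh-METTL3 was -0.49 (95% counting interval -0.59 to -0.40). The gene lies on chromosome 5 from 43287572 to 43313614 of GRCh37, on the minus strand. MVK, the kinase of mevalonate, had normalized counts of 922, 713 and 837, a change of -0.37. PMVK, the next kinase, had 908, 682 and 901, a change of -0.41. These 3 genes were the ones lower by at least 0.32 in the segment, and in each the sh-METTL3 library was the lowest of the 3. IDI1, an isomerase with pseudogene copies, had 2498, 2028 and 2509, a change of -0.30. ACAT2, the thiolase of the first step, had a change of -0.03, MVD, a decarboxylase, -0.07, and FDPS, the farnesyl diphosphate synthase, 0.05. All 3 were within counting error. By name, FDPS has 8 pseudogene copies and IDI1 has 3, so the reads of both are uncertain. The median of the 7 genes was -0.30.

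The span of MVK overlaps MMAB, and those of ACAT2, IDI1 and FDPS overlap TCP1, IDI2-AS1 and RUSC1-AS1. Reads could thus have been shared if the strand was not used in counting.

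The second segment turns farnesyl diphosphate into squalene and then cholesterol. MSMO1, the C4-methyl sterol oxidase, had the lowest change of the sterol branch. Its reads numbered 1104, 851 and 1392 in sh-CTL, sh-METTL3 and sh-CTL + PLK1i, and its normalized counts were 1287, 789 and 1281. The sh-METTL3 value was 61.3% of that in sh-CTL, and the log2 change was -0.71 (95% counting interval -0.84 to -0.58). It was the only sterol enzyme past 1.5-fold. MSMO1 lies on chromosome 4 from 166248819 to 166264316 of GRCh37, on the plus strand, and the median change of its 24 nearest genes was 0.03.

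CYP51A1, the demethylase that acts on lanosterol, had normalized counts of 4144, 2789 and 4434, a change of -0.57. It lies on chromosome 7, where the median of 632 genes with a mean count of 50 or more was -0.25 in sh-METTL3, and the median of its 24 nearest genes was -0.11. CYP51A1 also overlaps AKAP9 and has pseudogene copies. SC5D, the desaturase of the sterol ring, had 634, 441 and 652, a change of -0.52. DHCR7, which reduces the last double bond on one route to cholesterol, had 4071, 3016 and 3891, a change of -0.43, and overlaps ENSG00000254682. TM7SF2, a sterol reductase, had 973, 719 and 845, also a change of -0.43, and overlaps VPS51. SQLE, the squalene epoxidase, had 2477, 1973 and 2470, a change of -0.33. In all of these genes the sh-METTL3 library held the lowest value.

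The remaining enzymes of the segment were nearer to 0 in sh-METTL3. EBP, the sterol isomerase, had 4381, 3711 and 4109, a change of -0.24, beside a median of -0.28 for its 24 nearest genes. FDFT1, the squalene synthase, had 6804, 6217 and 5572, a change of -0.13. LSS, which closes the ring to lanosterol, had 8317, 8052 and 7309, a change of -0.05. NSDHL, a sterol dehydrogenase, had a change of 0.01, within counting error. HSD17B7, the reductase that acts with it, had 1305, 1463 and 1223, a change of 0.16, and was the 1 enzyme higher beyond counting error. HSD17B7 has pseudogene copies, so its reads are uncertain. The median of the 11 genes of the segment was -0.33.

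**Figure D2:**
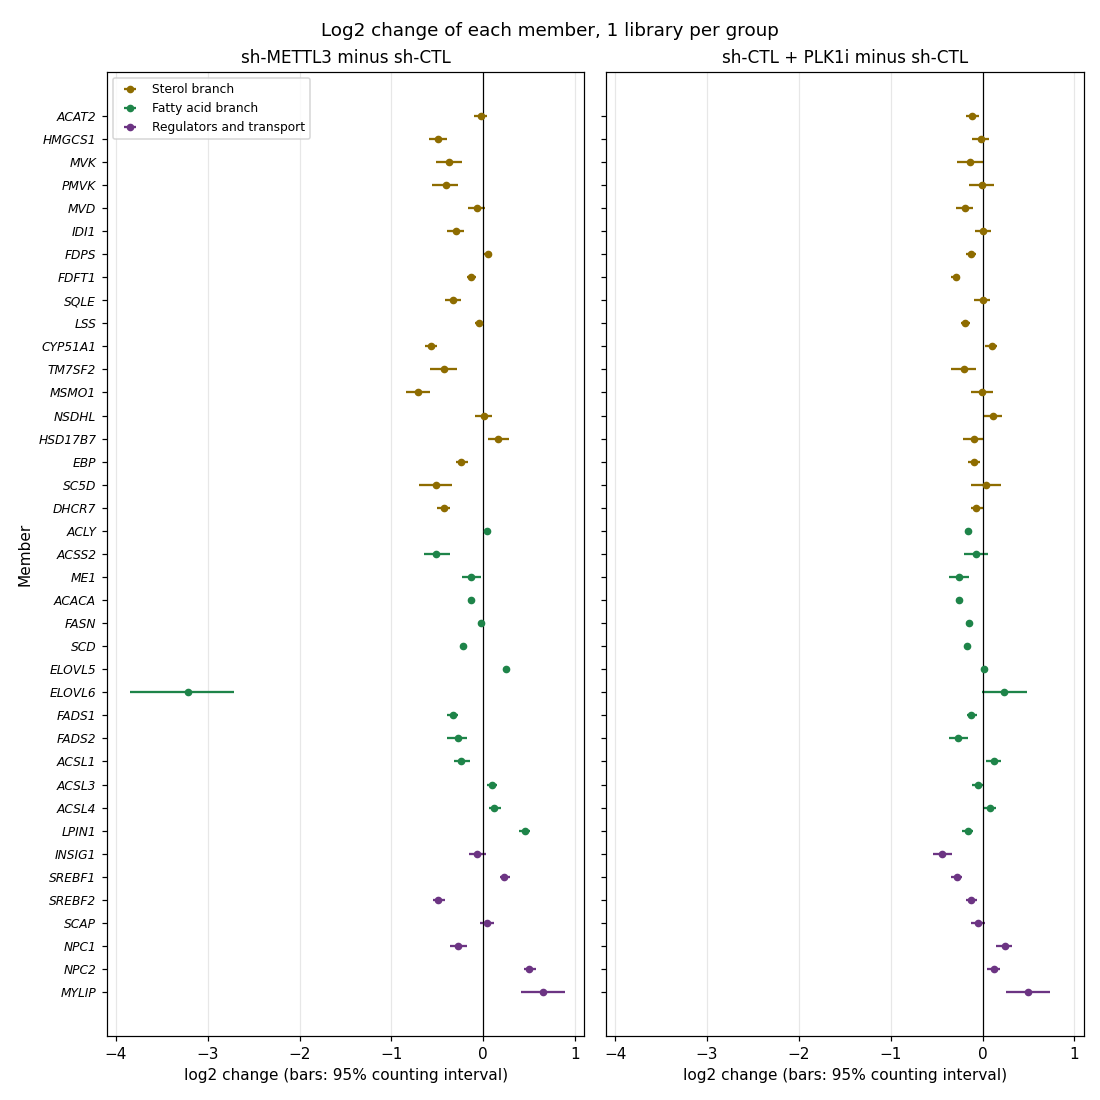
Log2 change from sh-CTL of each of the 39 genes in sh-METTL3 and with PLK1i, with the 95% counting interval as a horizontal bar, 1 library a group. The sterol genes of sh-METTL3 reach from -0.71 for MSMO1 to 0.16 for HSD17B7, and those with PLK1i from -0.29 for FDFT1 to 0.11 for NSDHL.

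The fatty acid enzymes spread in both directions in sh-METTL3. Their median log2 change was -0.13, 9 of 14 were below 0, 3 were lower by at least 0.32 and 1 was higher by at least 0.32. The shares of all genes were 14.5% lower and 15.8% higher. Among genes with a mean count of 500 or more, they were 9.35% and 6.90%. Beyond counting error, 8 were lower, 5 were higher and 1 was within it, where 28.2% of all genes were lower and 27.1% higher. Of the 9074 genes with a mean count of 500 or more, 3209 were lower and 2714 higher beyond it. The changes ran from -3.22 to 0.45.

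Acetyl-CoA, NADPH and the growing chain are supplied by 5 of these genes. ACLY, which splits citrate into acetyl-CoA, had normalized counts of 22008, 22613 and 19720, a change of 0.04 in sh-METTL3. FASN, the synthase that builds palmitate, had 20452, 20162 and 18462, a change of -0.02, within counting error. ACACA, the acetyl-CoA carboxylase of the cytosol, had 14581, 13307 and 12201, a change of -0.13. These 3 abundant genes lay close to sh-CTL, at log2 changes between -0.13 and 0.04. ME1, the malic enzyme that yields NADPH, also had a change of -0.13, from 1537 to 1407. ACSS2, which makes acetyl-CoA from acetate, had 1011, 712 and 964, a change of -0.51 (95% counting interval -0.65 to -0.36), and its span overlaps GGT7.

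Desaturation and elongation held the widest spread. ELOVL6, the elongase that turns palmitate into stearate, was covered by 236 reads in sh-CTL, by 31 in sh-METTL3 and by 351 with PLK1i. The normalized counts were 275, 28.7 and 323, so that the sh-METTL3 value was 10.4% of sh-CTL, and the log2 change was -3.22 (95% counting interval -3.85 to -2.72). Lower changes of at least 2-fold were found in 2.94% of all genes, and ELOVL6 was the only 1 of the 39. The gene lies on chromosome 4 from 110967002 to 111120355 of GRCh37, on the minus strand, and the median change of its 24 nearest genes was 0.10.

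SCD, which has 1 pseudogene copy, had 51346, 44228 and 45566, a change of -0.22 in sh-METTL3. ELOVL5, which extends polyunsaturated chains, had 11650, 13809 and 11835, a change of 0.25 in the direction opposite to ELOVL6. The ratio of ELOVL5 to ELOVL6 reads was 42.3 in sh-CTL (95% exact interval 37.2 to 48.4), 481 in sh-METTL3 (338 to 708) and 36.6 with PLK1i (32.9 to 40.8). FADS1 and FADS2, the desaturases of polyunsaturated chains, lie on opposite strands of chromosome 11 with overlapping spans. FADS2 also overlaps ENSG00000289268 and FEN1. FADS1 had 5266, 4195 and 4859, a change of -0.33, and FADS2 had 1708, 1405 and 1418, a change of -0.28. Their ratio was 3.08 in sh-CTL, 2.99 in sh-METTL3 and 3.43 with PLK1i.

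The genes that activate fatty acids or use them for glycerolipids had a median of 0.11 in sh-METTL3. LPIN1, the phosphatidate phosphatase that leads to diacylglycerol, had 4492, 6132 and 4023, a change of 0.45 (95% counting interval 0.39 to 0.51), and was the 1 fatty acid gene higher by at least 0.32. Of the acyl-CoA synthetases, ACSL4 had a change of 0.12 and ACSL3, with 1 pseudogene copy, of 0.09, while ACSL1 had 2518, 2135 and 2730, a change of -0.24. In this group, 3 of 4 genes were higher and 1 was lower beyond counting error, against 27.1% and 28.2% of all genes. Of the 9074 genes with a mean count of 500 or more, 2714 were higher and 3209 lower beyond it.

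**Figure D3:**
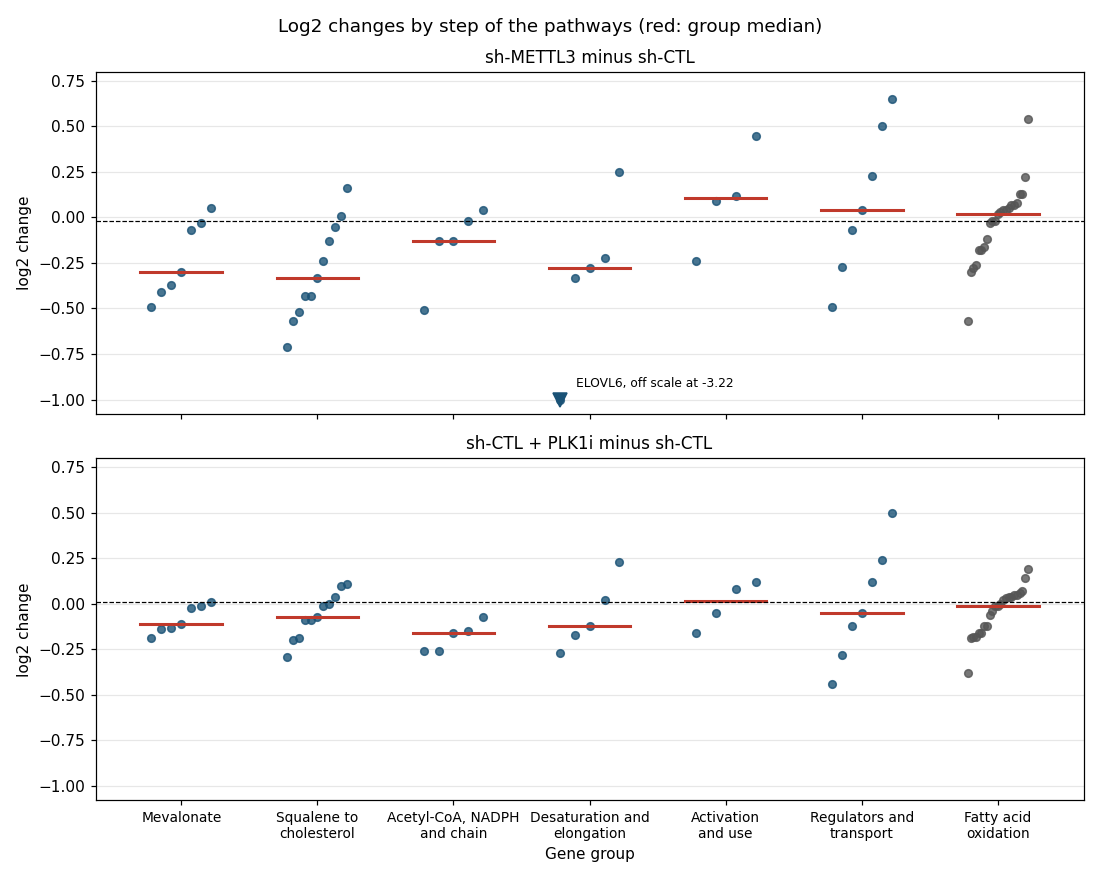
Log2 change from sh-CTL by step of the pathways, with each point a gene, the red line the median of its group, and the dashed line the median of genes with a mean count of 500 or more, 1 library a group. The medians in sh-METTL3 are -0.30 and -0.33 for the sterol segments and 0.02 for fatty acid oxidation, and ELOVL6, at -3.22, is drawn at the lower edge.

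The branches were then set against each other. In sh-METTL3 the sterol median was 0.18 below the fatty acid median on the log2 scale (-0.31 against -0.13), and in sh-CTL + PLK1i it was 0.05 above it (-0.08 against -0.13). The summed reads of the sterol genes were 46539, 51312 and 55048 in sh-CTL, sh-METTL3 and sh-CTL + PLK1i, and those of the fatty acid genes were 125568, 151517 and 144444. A ratio of these sums within a library does not depend on the scaling between libraries. The sterol to fatty acid ratio was 0.371 in sh-CTL (95% exact interval 0.367 to 0.375), 0.339 in sh-METTL3 (0.335 to 0.342) and 0.381 with PLK1i (0.377 to 0.385). The 3 counting intervals did not overlap, though no spread between cultures was measured.

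Scaled to the library total, the sterol sum was 1243, 1093 and 1153 CPM, so that sh-METTL3 held 88.0% and sh-CTL + PLK1i 92.8% of sh-CTL. The fatty acid sum was 3353, 3228 and 3026 CPM, or 96.3% and 90.3% of sh-CTL. SCD took 35.1%, 31.5% and 34.3% of the fatty acid reads, and without it the ratio was 0.571, 0.494 and 0.580, again lowest in sh-METTL3. A ratio of geometric means, which gives each gene the same weight, was 0.479 in sh-CTL, 0.487 in sh-METTL3 and 0.484 with PLK1i, so the order of sh-METTL3 and sh-CTL turned round. With ELOVL6 left out, chosen after its value was seen, the geometric ratio was 0.384, 0.334 and 0.395, with sh-METTL3 again the lowest.

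**Figure D4:**
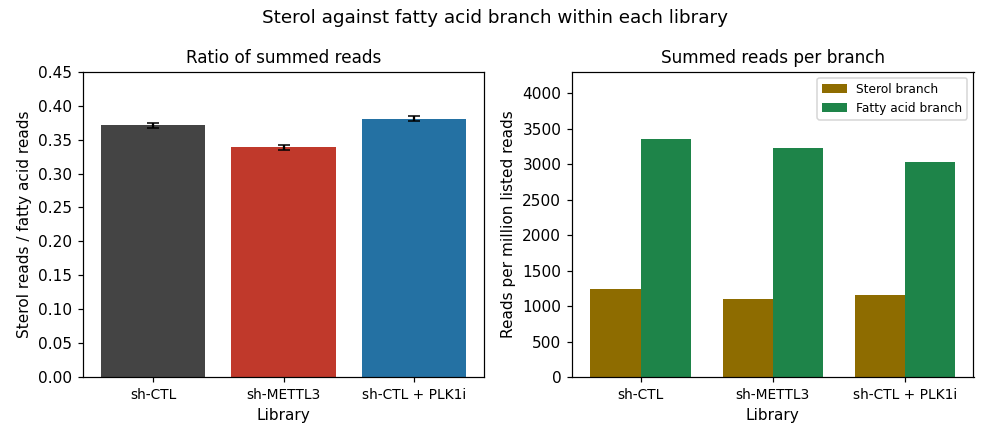
Ratio of summed sterol to summed fatty acid reads in each library, with bars from 0 and the 95% exact counting interval, beside the CPM of each branch, 1 library a group. The ratio is 0.371 in sh-CTL, 0.339 in sh-METTL3 and 0.381 with PLK1i.

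Regulators and transporters lay on both sides of 0 in sh-METTL3, with a median of 0.04. SREBF2 had 5231, 3737 and 4807, a change of -0.49 (95% counting interval -0.55 to -0.42), and was the only gene of the group lower by at least 0.32. It lies on chromosome 22 from 42229109 to 42303310 of GRCh37, on the plus strand. SREBF1 had 5170, 6082 and 4246, a change of 0.23 (95% counting interval 0.18 to 0.29), and overlaps RAI1. The genes of the SREBP pair thus differed from sh-CTL in opposite directions in sh-METTL3. The ratio of SREBF1 to SREBF2 reads was 0.988 in sh-CTL (95% exact interval 0.948 to 1.03), 1.63 in sh-METTL3 (1.56 to 1.69) and 0.883 with PLK1i (0.849 to 0.919).

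SCAP had 2675, 2746 and 2580, a change of 0.04, within counting error. INSIG1 had 1884, 1797 and 1392, a change of -0.07 in sh-METTL3, also within counting error, and its 24 nearest genes on chromosome 7 had a median of -0.22. NPC1 and NPC2, the partners that move cholesterol out of lysosomes, parted in sh-METTL3. NPC2 had 3628, 5140 and 3942, a change of 0.50, and overlaps ISCA2. NPC1 had 2211, 1831 and 2610, a change of -0.27, beside a median of -0.13 for its chromosome, 18, and overlaps RMC1. Their ratio of reads was 1.64 in sh-CTL, 2.81 in sh-METTL3 and 1.51 with PLK1i. MYLIP, a ubiquitin ligase induced by sterol that limits lipoprotein uptake, had 258, 404 and 364, a change of 0.65 (95% counting interval 0.41 to 0.89). MYLIP had few reads, 221, 436 and 395 in the 3 libraries.

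In all, 13 of the 39 genes were lower by at least 0.32 in sh-METTL3 and 3 were higher, against 14.5% and 15.8% of all genes. Beyond counting error, 23 were lower and 9 higher, against 28.2% and 27.1% of all genes. More reads narrow the interval, and of the 9074 genes with a mean of 500 or more, 3209 were lower and 2714 higher beyond it. For the 37 lipid genes at that level the counts were 22 and 8. Of the 37 with a mean count of 500 or more, 12 were lower and 2 higher past 0.32, against 9.35% and 6.90% of all genes at that level.

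After NMS-P937 the differences were smaller. Only 1 of the 39 genes was lower by at least 0.32 and 1 was higher, where 11.5% of all genes were lower and 10.2% higher, and 4.32% and 3.70% among genes with a mean of 500 or more. INSIG1 was the lower one, at 73.9% of its sh-CTL level, which is -0.44 on the log2 scale (95% counting interval -0.54 to -0.33). MYLIP was the higher one, with a change of 0.50 (95% counting interval 0.26 to 0.74), and it was also higher in sh-METTL3. Both comparisons used the same sh-CTL library. Below 0 were 28 of the 39 genes, with a median of -0.09 against 0.01 for genes with a mean of 500 or more. Beyond counting error, 19 were lower and 7 higher, against 22.8% and 23.1% of all genes. Of the 9074 genes with a mean of 500 or more, 2523 were lower and 2716 higher beyond it.

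Of the sterol branch, 0 genes passed 0.32 after NMS-P937, and the median was -0.08. The lowest were FDFT1 at -0.29, TM7SF2 at -0.20, and MVD and LSS at -0.19. Enzymes with the lowest values in sh-METTL3 were close to sh-CTL here: HMGCS1 had -0.02, MSMO1 -0.01 and SC5D 0.04, all within counting error, and CYP51A1 had 0.10. The chain synthesis genes were all 5 below 0, with a median of -0.16. Of these, 4 were lower beyond counting error, against 22.8% of all genes and 2523 of the 9074 with a mean of 500 or more. ACACA and ME1 had -0.26, ACLY -0.16 and FASN -0.15. SCD had -0.17, FADS2 -0.27 and ELOVL6 0.23, the last within counting error.

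Of the regulators, SREBF1 had a change of -0.28 after NMS-P937 and SREBF2 of -0.12, so that the SREBP pair lay on the same side of sh-CTL. NPC1 had 0.24 and NPC2 0.12. SCAP had -0.05, within counting error.

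Genes next to these routes were counted from 5 fixed lists, in which the largest differences of each comparison are named. The 9 genes described here that process or degrade SREBP and its carriers had medians of 0.01 in sh-METTL3, with a mean of -0.01, and -0.02 after NMS-P937. Past 0.32, 1 was lower and 0 were higher in sh-METTL3, against 14.5% and 15.8% of all genes. In sh-METTL3, MBTPS2, a protease that cuts SREBP, had -0.37, UBE2G2, a ubiquitin-conjugating enzyme, had -0.16, and ERLIN2 and RNF145 had 0.18. After NMS-P937, INSIG2 had -0.25, ERLIN2 -0.17, and ERLIN1 and SPRING1 0.11. The 14 genes that turn mevalonate products into isoprenoids had medians of 0.02 and 0.07. COQ2, of ubiquinone synthesis, had 0.40 in sh-METTL3, and NUS1, of dolichol synthesis, had 0.33 after NMS-P937. The lower ends were DHDDS at -0.21 in sh-METTL3 and PDSS1 at -0.11 after NMS-P937. In sh-METTL3, 0 of the 14 were lower and 1 was higher by 0.32, against the same shares of all genes.

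Sterol esterification, efflux and lysosomal handling had 12 of 13 genes with a row and medians of -0.12 and 0.01. Past 0.32, 4 of the 12 were lower and 1 was higher in sh-METTL3, against 14.5% and 15.8% of all genes. ABCA1, which exports cholesterol, had normalized counts of 168, 511 and 168, a change of 1.60 in sh-METTL3 (95% counting interval 1.34 to 1.88). GRAMD1B, which carries cholesterol from the plasma membrane to the endoplasmic reticulum, had 4099, 1458 and 3763, a change of -1.49 (95% counting interval -1.58 to -1.41), and its relative GRAMD1A had -0.40. After NMS-P937, NCEH1, a hydrolase of cholesteryl esters, had a change of 0.58, from 9114 to 13580. ERG28, a scaffold of the sterol enzymes, had -0.29.

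Other genes of fatty acid and glycerolipid synthesis had 22 of 25 with a row and medians of 0.06 and 0.03, while the mean after NMS-P937 was -0.02. Past 0.32, 2 of the 22 were lower and 4 higher in sh-METTL3, near the 14.5% and 15.8% of all genes, and 4 were lower and 1 higher after NMS-P937, where 11.5% and 10.2% of all genes were. FADS3 had 0.51 and SCD5 0.36 in sh-METTL3, and GPAM, the acyltransferase of mitochondria, had -0.41 and MID1IP1 -0.37. After NMS-P937, ACACB, the carboxylase of mitochondria, had normalized counts of 765 in sh-CTL and 498, a change of -0.62, and IDH1, a source of NADPH, had -0.48. DGAT2 had 0.27 and GPAT3 0.25. The elongases with few reads, named after their values were seen, were ELOVL2, with 1, 50 and 1 reads, and ELOVL7, with 15, 65 and 26. The change of ELOVL2 had a counting interval of 2.77 to 10.64 and that of ELOVL7 of 0.96 to 2.7. Fatty acid oxidation, which breaks the chains down, had 23 genes with medians of 0.02 and -0.01 and a mean of -0.03 in sh-METTL3. Past 0.32, 1 of the 23 was lower and 1 higher in sh-METTL3: ACAA2, a thiolase, at -0.57 and DECR1, a reductase, at 0.54. HADH, at -0.38, was the 1 lower after NMS-P937.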

How the data were processed

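ISOGEN was used for extraction, and libraries were made with a stranded kit for polyadenylated RNA, per the labels. The authors deposited 1 table of log2 values for 14949 genes. The submitters' processing notes name FastQC 0.11.9, STAR 2.7.10, RSEM 1.3.3 and hg19. The normalization, the strand setting of the counting and any filter on low genes were not given in the sources used here. The deposited log2 values followed log2(normalized count + 4), and whole counts were recovered from them, which are called reads here. RSEM gives estimated counts, so these may be rounded estimates rather than observed reads. 1 read equalled 1.17, 0.927 and 0.921 units in sh-CTL, sh-METTL3 and sh-CTL + PLK1i, and 100% of values under 2000 reads lay within 0.1 of a whole number. The reads in listed genes came to 37449331, 46944900 and 47727497.

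With 1 library a group no count test was run. Differences were taken on log2(normalized count + 1), which understates the changes of low genes. Exact intervals (Clopper-Pearson, 95%) for the reads of 1 library over another, scaled by the size factors, compare 2 libraries and not 2 conditions. Amplified reads are not independent molecules, so intervals cover counting error only. Interval coverage and the recovery of reads were tested on simulated data. Calculations used Python 3.11.15, numpy 2.4.6, pandas 2.3.3 and scipy 1.17.1, and matplotlib 3.10.9 drew the plots.

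Positions, transcript lengths and overlaps came from GENCODE 44 mapped to GRCh37, which held 14858 of the 14949 identifiers. Pseudogene copies were counted by name only, as gene symbols made of the symbol of the gene, a P and any digits. Copies with other names were not counted. Neighbour medians used the 24 nearest genes with a mean count of 50 or more. All listed members were described. In the other lists, the 2 largest rises and the 2 largest falls per comparison among genes with a mean of 50 or more were eligible to be named. The members and lists were chosen with earlier results of these data known. 1 gene of the other lists and further genes of these pathways are not reported here, their values need not follow those given, and the counts describe the named genes and not the pathways as a whole.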

Additional observations from a re-analysis of the deposited data

How the results depend on the processing

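The values were recomputed with pseudocounts, scalings, a filter on low values, GC and length adjustment, subtraction of the neighbour median and smaller branch lists. Of 367 recomputed medians, counts and ratios, 352 stayed within the counting error for medians and ratios or within 1.5 times for counts. Of 624 changes of single genes, 599 stayed within their counting interval. The median-of-ratios scaling gave the same size factors as the deposited values (0.858, 1.08 and 1.09). Its values could not move, and they are included in these counts. Calls past 0.32 near the limit were still lost in sh-METTL3: SQLE at -0.31 under upper-quartile scaling, which left 8 sterol genes lower, and FADS1 at -0.31 under that scaling, at -0.32, just inside the unrounded limit, under GC and length adjustment and at -0.30 under the neighbour median, each of which left 2 fatty acid genes lower. The sterol median lay between -0.32 and -0.28 in sh-METTL3 and between -0.09 and -0.02 with PLK1i, and the fatty acid median between -0.19 and -0.11 and between -0.15 and -0.11. Their difference lay between -0.20 and -0.12 in sh-METTL3 and between 0.03 and 0.12 with PLK1i.

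Without the sterol genes that have copies or overlaps, the number lower by at least 0.32 in sh-METTL3 was 5, since fewer genes were counted, and the ratio of branches was 0.209 in sh-CTL, 0.192 in sh-METTL3 and 0.210 with PLK1i. Without the acyl-CoA synthetases and LPIN1, 0 fatty acid genes were higher by at least 0.32 in sh-METTL3, since LPIN1 had been the only such gene. The ratio was then 0.418, 0.390 and 0.435. With geometric means it was 0.479, 0.487 and 0.484. Without ELOVL6, an alternative chosen after seeing the data, 0 fatty acid genes were at least 1.5-fold or 2-fold lower in sh-METTL3. ELOVL6 had been the only such gene, so this followed from its removal. With the neighbour median subtracted, the median of the regulators in sh-METTL3 was 0.15, 1 sterol gene was lower by at least 0.32 in sh-CTL + PLK1i (FDFT1, at -0.34), and 11 changes of single genes turned sign. Of these, 7 had been within counting error, and 4 beyond it: EBP to 0.04 and ACLY to -0.06 in sh-METTL3, and SCD to 0.02 and ACSL1 to -0.03 in sh-CTL + PLK1i. The cause was not tested.

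No paired analysis was possible because each group held 1 library and no test was run. Leaving out a library would remove a whole group, so this was not done. The depth limits counting error only, and the spread between cultures was not measured.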
